A study of Mus musculus with 23 samples.

Results

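Potassium channel genes were followed in RNA from the mouse hippocampus, with and without social defeat stress. The members are the genes whose symbol begins with Kcn and a letter in both deposited tables, with a mean level of at least 0.5 RPKM over 20 libraries (RPKM divides the reads of a gene by its length and by the depth of the library). Of 39017 genes in the tables, 98 symbols matched, 2 antisense transcripts were left out by name, and 77 of the other 96 reached the level. Of these 77, 75 are channel or subunit genes. The other 2, Kcnmb4os1 and Kcnmb4os2, are antisense transcripts beside Kcnmb4 that the wording of the name filter did not remove. The members were chosen by their measured mean level as well as by name, so levels are given as a description. The rule itself uses no effect of stress or genotype, though it was set with earlier results of these data known. Kcnh6 at 0.543 and Kcnrg at 0.618 RPKM were just inside the threshold, and Kcne4 at 0.459 and Kcnmb1 at 0.364 RPKM just outside it.

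Potassium channels let potassium leave the cell and so set the resting potential, the shape of each action potential and the rate at which a neuron can fire. Voltage-gated channels (Kcna to Kcnd, Kcnh, Kcnq) open on depolarisation, inward rectifiers (Kcnj) and two-pore channels (Kcnk) set the resting conductance, and the Kcnma, Kcnn and Kcnt channels open with intracellular calcium or sodium. In the hippocampus, A-type channels limit dendritic excitation and transmitter release, Kv7 channels carry the M-current that restrains repeated firing, and GIRK channels carry slow inhibition through GABA-B and adenosine receptors.

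The 4 groups held 5 libraries each. They were libraries labelled Nrsn2-KO (neurensin 2 knockout, written KO below) after CSDS, KO controls, WT after CSDS and WT controls. CSDS is chronic social defeat stress, in which a mouse met an unfamiliar CD-1 aggressor for 5 min on each of 10 days and was otherwise kept behind a perforated divider beside it. The labels give no strain, age or sex, do not describe the Nrsn2 allele, and do not say whether each library was 1 animal, so the p-values measure the spread between libraries. A further 3 libraries, WT 9B and KO 10B and 11, have control in the title and CSDS as the treatment, and were left out of the comparisons.

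Depth was 25.62 to 55.60 M reads per library. Nrsn2 averaged 34.1 ± 2.3 RPKM after CSDS and 31.3 ± 1.9 RPKM in controls of the KO label, and 29.7 ± 2.5 RPKM after CSDS and 29.2 ± 2.4 RPKM in controls of WT (SD, n = 5 each), so it was not lower in the libraries labelled KO. Without the allele this does not check the label. Control 10 of each genotype had 48.2 to 56.5 RPKM of the sex-linked gene Xist, against 0.0347 to 0.0618 RPKM in the other 18 libraries. The Y-linked gene Ddx3y was at 0.163 to 0.499 RPKM in control 10 and at 9.66 to 13.0 RPKM in those 18. By these genes control 10 of each genotype differed in sex from every stressed library, though the labels give no sex. KO control 10 stood apart for the channels, since it was the lowest of the 5 KO controls for 44 of the 77 members and for 24.9% of all 18263 genes at the same level. Hippocampal markers were present in every library, with pyramidal markers summing to 842 to 1015 RPKM and striatal markers to 23.6 to 38.8 RPKM. A set of 7 structural RNAs moved with stress in both genotypes. Their mean log2 level was 2.55 ± 0.15 after CSDS and 4.11 ± 0.92 in controls labelled KO, and 2.45 ± 0.17 after CSDS and 3.75 ± 0.55 in WT controls (SD, n = 5 libraries each).

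The promoters of 4 members on which the results turn are shown here, as the 250 bases before the RefSeq start of the gene. Kcnj2, Kcna4 and Kcnj4 had the highest mean of both fold changes among the members that rose after CSDS in both genotypes, and Kcnf1 is the member that fell most in WT. The sequences are from RefSeq on GRCm38.p6, read 5′ to 3′ on the strand of the gene, and 54 of the 77 members were matched in that set. The windows are chr11:111065914-111066163 on the plus strand for Kcnj2, chr2:107290339-107290588 on the plus strand for Kcna4, chr15:79505242-79505491 on the minus strand for Kcnj4 and chr12:17176889-17177138 on the minus strand for Kcnf1. For Kcna4 the window ends short of chr2:107290639, where the gene starts in the deposited coordinates, while the other windows abut theirs. Capitals mark a match to a motif described after the sequences.
Kcnj2: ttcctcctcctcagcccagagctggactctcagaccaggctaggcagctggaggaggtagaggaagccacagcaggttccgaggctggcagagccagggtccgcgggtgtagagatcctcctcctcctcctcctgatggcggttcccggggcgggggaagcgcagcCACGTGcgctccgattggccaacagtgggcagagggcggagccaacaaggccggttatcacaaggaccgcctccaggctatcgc
Kcna4: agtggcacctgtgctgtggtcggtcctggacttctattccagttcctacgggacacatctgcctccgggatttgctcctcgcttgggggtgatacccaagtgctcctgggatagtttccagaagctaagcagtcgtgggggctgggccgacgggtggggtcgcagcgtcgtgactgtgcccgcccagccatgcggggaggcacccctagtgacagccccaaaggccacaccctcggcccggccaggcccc
Kcnj4: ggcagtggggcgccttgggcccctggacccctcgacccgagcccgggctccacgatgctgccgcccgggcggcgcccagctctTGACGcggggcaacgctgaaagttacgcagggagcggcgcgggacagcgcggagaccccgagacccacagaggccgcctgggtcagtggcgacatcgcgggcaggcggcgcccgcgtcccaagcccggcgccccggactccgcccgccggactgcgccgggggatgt
Kcnf1: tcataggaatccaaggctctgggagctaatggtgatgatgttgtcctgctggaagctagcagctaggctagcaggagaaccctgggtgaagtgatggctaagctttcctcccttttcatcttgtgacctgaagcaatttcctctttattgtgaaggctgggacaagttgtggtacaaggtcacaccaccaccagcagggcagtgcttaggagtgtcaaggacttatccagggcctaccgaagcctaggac
The Kcnj2 window held an E-box (CACGTG) 84 bases before the start, a motif found on either strand in 6.02% of all 32851 promoter windows. The Kcnj4 window held the shorter CRE core (TGACG) 167 bases before the start, which 17.8% of all windows held. Neither was found in the windows of Kcna4 and Kcnf1. Among the 54 matched members, 3 held the E-box and 13 the CRE core, which is also part of the full CRE. A member counts here if any of its windows held the motif. The shares given are of single windows, so the counts of members are not directly comparable with them. The full CRE (TGACGTCA), present in 1.55% of all windows, and the D-box (TTATGNAA), present in 3.07%, were in no matched member. AP-1 (TGANTCA, 6.75% of all windows) and EGR (GCGNGGGCG, 4.70%) were each in 3 members. Of the 54 matched members, 9 rose and 11 fell after CSDS in at least 1 genotype. E-boxes were in 2 of the 9, Kcnj2 and Kcnh4, and in none of the 11. CRE cores were in 1 of the 9 (Kcnj4) and in 3 of the 11 (Kcna6, Kcnc1 and Kcnc4). Both AP-1 and EGR letters were in 1 of the 9, Kcnk2, and in none of the 11. A link between motifs and changes was not tested.

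Channel genes spanned more than 2 orders of magnitude in level. The median member had 7.45 RPKM, 13 members reached 20 RPKM, 29 reached 10 RPKM and 15 were under 2 RPKM. Kcnab2, a cytoplasmic beta subunit that binds Kv1 channels, was the highest at 96.2 RPKM. Kcnip2, a calcium-binding subunit of Kv4 channels, was at 39.4 RPKM. Kcnk1 (the two-pore channel TWIK-1) at 30.1 RPKM and Kcnj10 (Kir4.1, the main inward rectifier of astrocytes) at 29.9 RPKM had similar means, which were not compared by a test. The 12 Kcnj genes together summed to 155 RPKM and the 3 Kcnab genes to 119 RPKM. The 9 Kcnk genes ran from 0.765 to 30.1 RPKM.

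**Figure D1:**
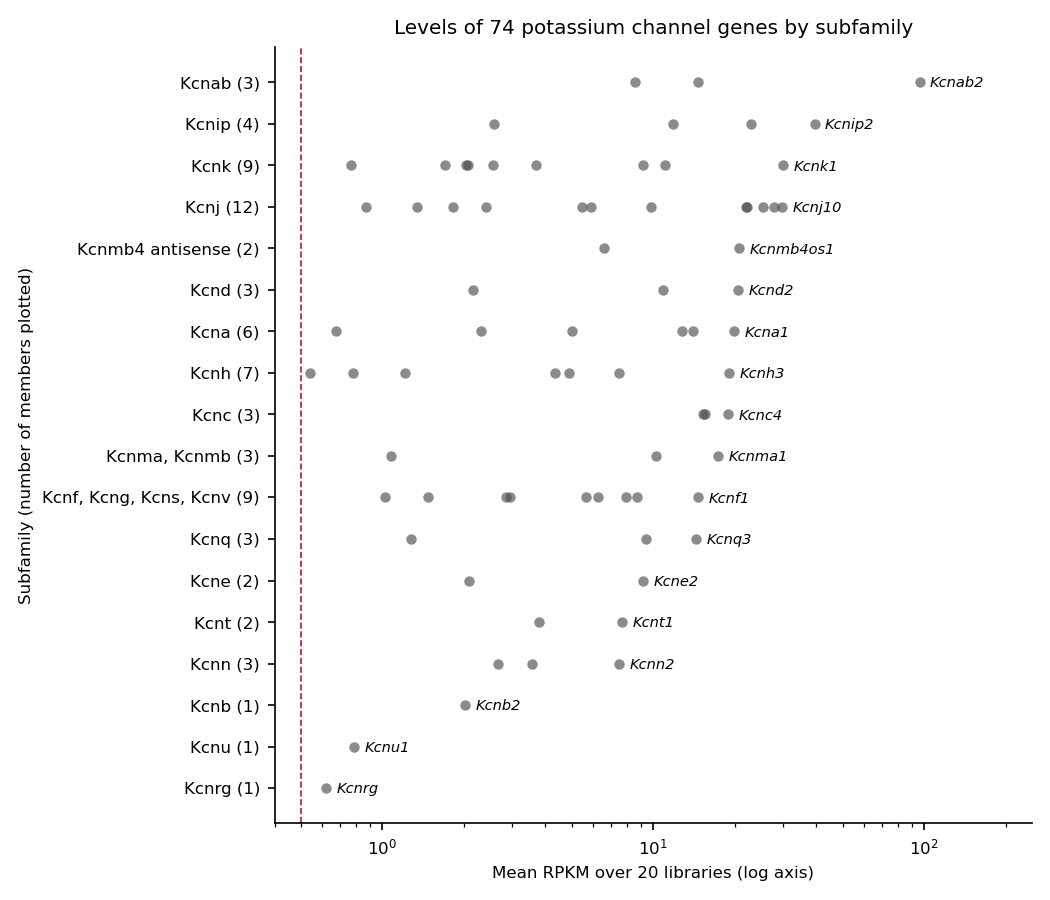
Mean RPKM over the 20 libraries (log axis) for 74 of the 77 members, 1 point per gene, by subfamily with the number plotted in brackets. The highest member plotted of each subfamily is named, from Kcnab2 at 96.2 RPKM to Kcnrg at 0.618 RPKM, and the dashed line is the threshold of 0.5 RPKM.

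After CSDS, 14 of the 77 channel genes changed in the libraries labelled KO and 23 in WT, at an adjusted p under 0.05 over all 18263 genes (limma, two-sided). In the libraries labelled KO, 8 members rose and 6 fell. This is 18.2% of members, where 15.1% of all genes were called (6.15% higher and 8.92% lower). In WT, 10 rose and 13 fell, which is 29.9% of members, where 22.4% of all genes were called (9.86% higher and 12.5% lower). The median log2 fold change was 0.01 over the members and -0.01 over all genes in the libraries labelled KO, and -0.04 over the members and close to 0 (-0.002) over all genes in WT. Changes were small, since Kcnj2 in the libraries labelled KO was the only called member to reach 1.5-fold. CSDS and control libraries did not overlap for 13 members in the libraries labelled KO, against 12.9% of all genes, and for 18 members in WT, against 17.1% of all genes. In bulk tissue, fewer cells that use a channel and less RNA per cell cannot be told apart. The structural RNAs given above moved with the same groups, and their part in these changes was not tested.

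**Figure D2:**
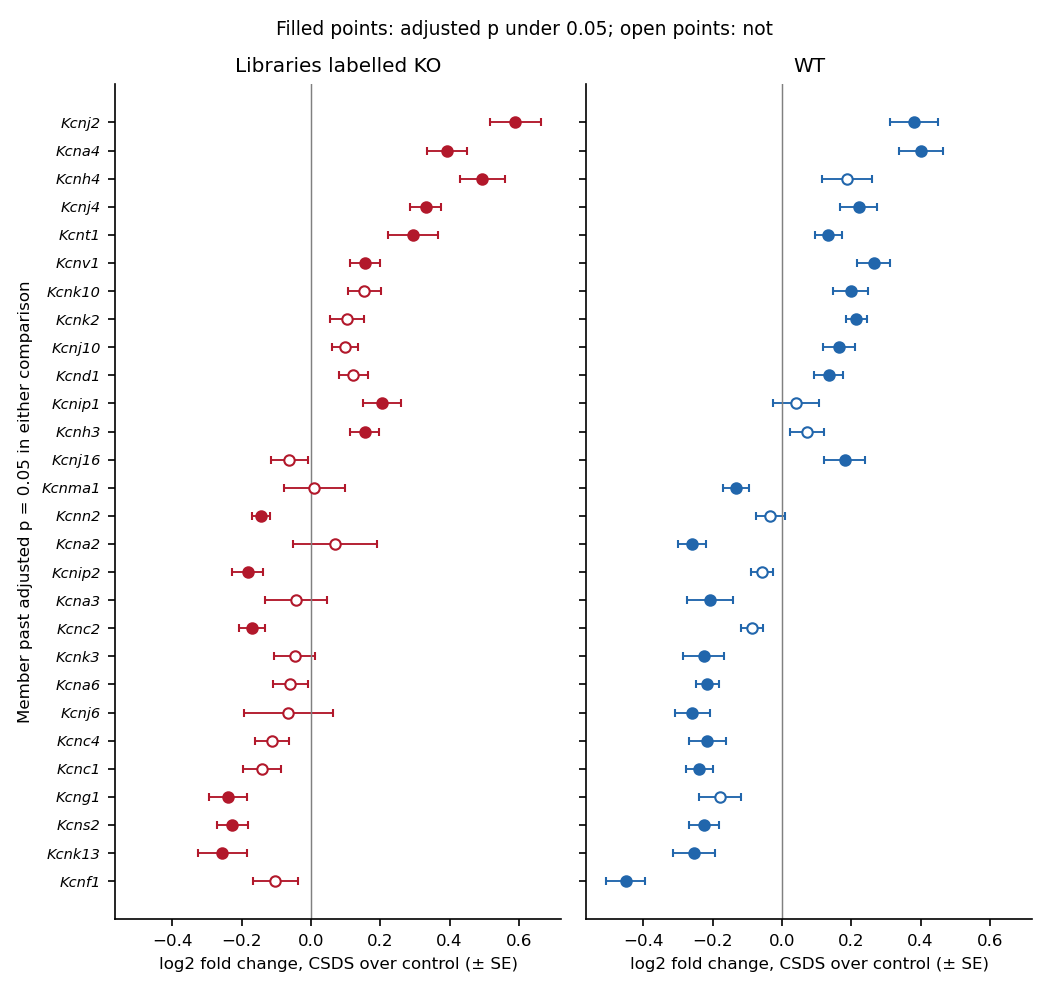
Log2 fold change of CSDS over control (± SE, on log2(RPKM + 0.5)) for 28 of the 30 members called in either genotype, with libraries labelled KO on the left and WT on the right. Filled points passed adjusted p 0.05. Kcnj2, Kcna4, Kcnj4, Kcnt1 and Kcnv1 lie right of 0 and filled in both panels, and Kcns2 and Kcnk13 left of 0 and filled in both.

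Called in both genotypes were 7 members, all in the same direction in both. These are 50.0% of the calls with the KO label and 30.4% of the WT calls, and the comparisons share no library. The share of all genes called in both genotypes was not computed, so this overlap is not shown to be particular to channel genes. Of the 7, 5 rose and 2 fell.

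Kcnj2 (chr11:111066164-111076821 in mm10), which encodes the strong inward rectifier Kir2.1 that holds neurons near rest, had the largest rise with the KO label. It was at 3.32, 3.52, 2.70, 3.35 and 2.72 RPKM after CSDS in the libraries labelled KO, against 1.96, 1.81, 2.02, 1.96 and 1.74 RPKM in their controls. In WT it was at 3.02, 2.45, 2.35, 2.75 and 2.74 RPKM after CSDS, against 2.24, 1.85, 1.79, 1.97 and 1.78 RPKM in controls. Every stressed library was above every control of its genotype. The log2 fold change was 0.59 ± 0.07 with the KO label (SE, adjusted p = 0.00128) and 0.38 ± 0.07 in WT (adjusted p = 0.00463).

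Kcna4 (chr2:107290639-107298502) encodes Kv1.4, a rapidly inactivating A-type channel of axons and terminals. Its levels after CSDS were 6.51, 5.58, 5.12, 6.13 and 5.73 RPKM with the KO label, against 4.51, 4.43, 4.25, 4.30 and 4.00 RPKM in controls. In WT they were 6.29, 5.36, 5.86, 5.07 and 6.25 RPKM after CSDS, against 4.60, 3.95, 4.41, 4.21 and 3.99 RPKM in controls. The groups did not overlap in either genotype, and the log2 fold changes were nearly the same, 0.39 ± 0.06 with the KO label (adjusted p = 0.00248) and 0.40 ± 0.06 in WT (adjusted p = 0.00223).

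Kcnj4 (chr15:79483714-79505241) encodes Kir2.3, another strong inward rectifier. It averaged 24.7 ± 1.4 RPKM after CSDS and 19.6 ± 0.9 RPKM in controls with the KO label (SD, n = 5 each), and 23.5 ± 1.8 RPKM after CSDS and 20.1 ± 1.0 RPKM in WT controls (SD, n = 5 each). The groups were separate with the KO label, whose stressed libraries ran from 22.6 to 26.6 RPKM and controls from 18.3 to 20.7 RPKM. In WT the ranges of 20.7 to 25.1 RPKM after CSDS and 18.7 to 21.2 RPKM in controls met, through the stressed library 2. The log2 fold changes were 0.33 ± 0.04 with the KO label (adjusted p = 0.00177) and 0.22 ± 0.05 in WT (adjusted p = 0.0156).

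Kcnv1 (chr15:45106284-45114920), a Kv8.1 subunit that forms no channel alone and joins Kv2 channels, was at 8.14 to 9.04 RPKM after CSDS and 6.93 to 8.07 RPKM in controls with the KO label. In WT it was at 8.15 to 9.11 RPKM after CSDS and 6.65 to 7.89 RPKM in controls. The groups did not overlap in either genotype (adjusted p = 0.0347 with the KO label and 0.00444 in WT). Kcnt1 (chr2:25863734-25918273), the sodium-activated channel Slack, rose by a log2 fold change of 0.29 ± 0.07 with the KO label (adjusted p = 0.0219) and 0.13 ± 0.04 in WT (adjusted p = 0.0287). Its groups overlapped in both genotypes, at 7.21 to 9.26 RPKM after CSDS and 6.10 to 7.28 RPKM in controls with the KO label, and 7.80 to 8.59 RPKM after CSDS and 6.99 to 7.97 RPKM in WT controls. Of the 5 that rose, Kcnv1 with the KO label and Kcnt1 in both genotypes lost the call when some single libraries were left out.

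Kcns2 and Kcnk13 fell in both genotypes. Kcns2 (chr15:34837355-34843407) encodes Kv9.2, another silent partner of Kv2 channels. It was at 5.97, 5.92, 6.29, 5.50 and 6.09 RPKM after CSDS with the KO label, against 7.17, 7.61, 6.82, 7.12 and 6.56 RPKM in controls. In WT it was at 5.43, 5.38, 5.37, 5.47 and 5.75 RPKM after CSDS, against 6.42, 5.90, 6.87, 6.96 and 6.32 RPKM in controls. No stressed library reached a control of its genotype, and the log2 fold change was -0.23 ± 0.04 with the KO label (adjusted p = 0.00972) and -0.22 ± 0.04 in WT (adjusted p = 0.00572). Kcnk13 (chr12:99964499-100062682), the two-pore channel THIK-1 known from microglia, was at 1.56 to 2.13 RPKM after CSDS and 2.18 to 2.57 RPKM in controls with the KO label. In WT it was at 1.56 to 1.91 RPKM after CSDS and 1.98 to 2.37 RPKM in controls. Again the groups did not overlap, with log2 fold changes of -0.26 ± 0.07 with the KO label (adjusted p = 0.0364) and -0.25 ± 0.06 in WT (adjusted p = 0.0137). The call with the KO label was lost in 7 of 10 fits that left out 1 library, and without KO control 10 the value was -0.23 (adjusted p = 0.0586).

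The microglial markers beside Kcnk13 did not fall as a list. With the KO label 1 of 10 fell and none rose, with sums of 154 to 175 RPKM after CSDS and 162 to 188 RPKM in controls. In WT 3 of 10 rose and none fell, with sums of 170 to 197 RPKM after CSDS and 149 to 180 RPKM in controls.

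**Figure D3:**
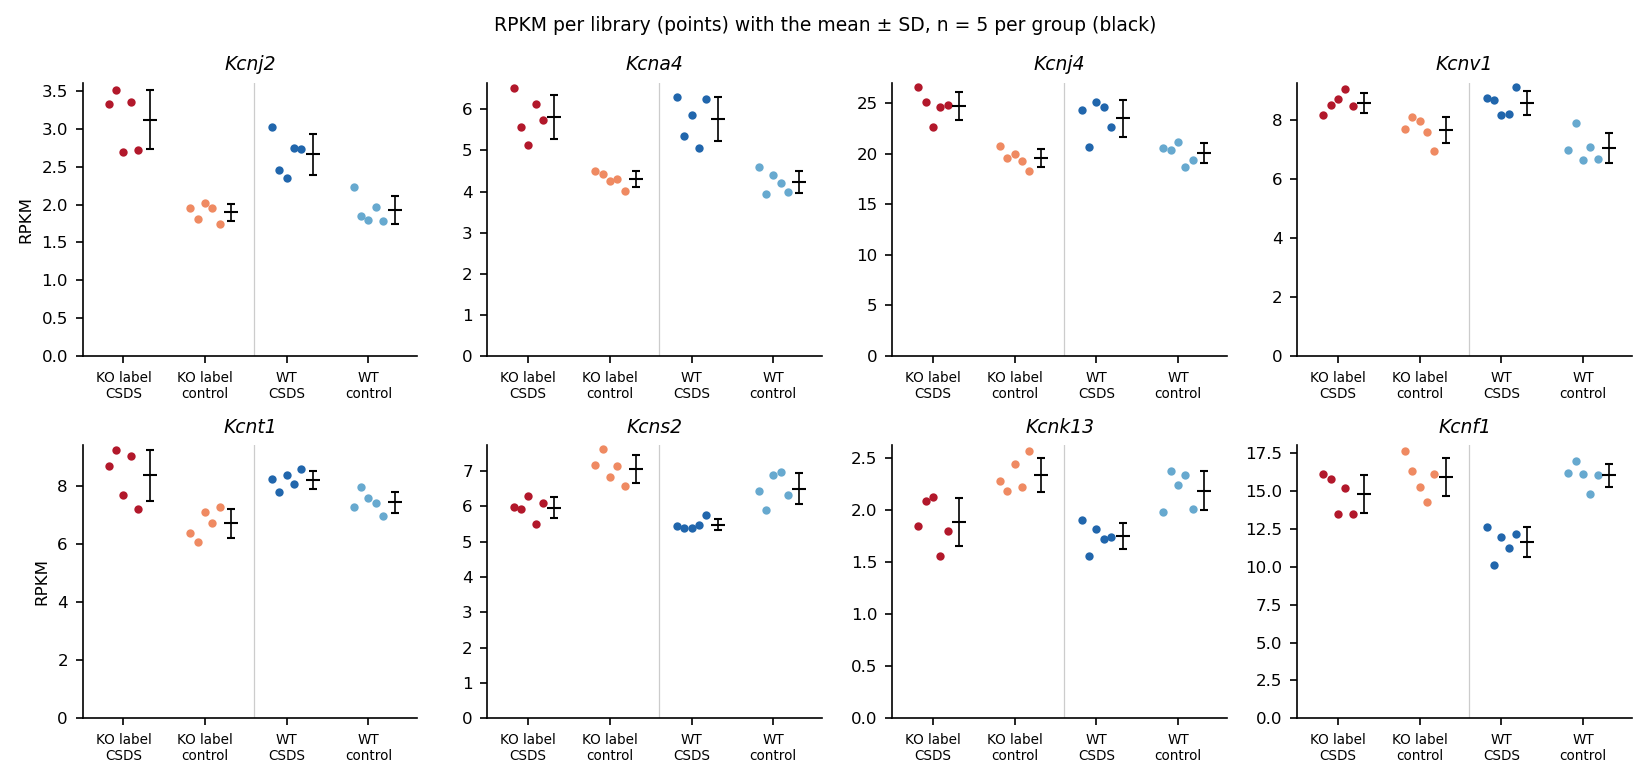
RPKM in each library (points) with the mean ± SD (black, n = 5 per group) for the 7 members called after CSDS in both genotypes and for Kcnf1. Groups run from KO-labelled CSDS to WT control, and each axis starts at 0. For Kcnj2, Kcna4, Kcnv1, Kcns2 and Kcnk13 the stressed libraries lie apart from the controls of the same genotype in both genotypes, and for Kcnf1 only the WT groups lie apart.

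Among the voltage-gated channels, the Kv1 genes that fell were called in WT. Kcna2 (chr3:107101146-107115005), the Kv1.2 delayed rectifier of axons, was at 11.8, 12.9, 11.6, 13.3 and 13.1 RPKM after CSDS, against 15.5, 14.8, 14.7, 14.8 and 15.7 RPKM in WT controls. The groups were separate (log2 fold change -0.26 ± 0.04, adjusted p = 0.00223), but the call was lost in a shared fit of all 4 groups. Kcna6 (Kv1.6) had -0.21 ± 0.03 (adjusted p = 0.00229), with 39.6% of its exons shared with a gene model on the opposite strand whose reads cannot be told apart here. Kcna3 (Kv1.3) had -0.21 ± 0.07 (adjusted p = 0.0467), with overlapping groups, and lost the call in 7 of 10 fits that left out 1 library. None of these was called with the KO label, at 0.07 ± 0.12 for Kcna2, -0.06 ± 0.05 for Kcna6 and -0.04 ± 0.09 for Kcna3. Kcna1 (Kv1.1) was called in neither, at 0.06 ± 0.05 with the KO label and -0.09 ± 0.04 in WT.

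The silent subunits, which join Kv2 channels, held the member that fell most in WT. Kcnf1 (chr12:17172100-17176888), which encodes the silent subunit Kv5.1, was at 12.7, 10.1, 11.9, 11.3 and 12.1 RPKM after CSDS, against 16.2, 17.0, 16.1, 14.8 and 16.1 RPKM in WT controls. All stressed WT libraries were below all WT controls (log2 fold change -0.45 ± 0.06, adjusted p = 0.000836), and the call held in all 10 fits that left out 1 library. With the KO label it was at 16.1, 15.8, 13.5, 15.2 and 13.5 RPKM after CSDS, against 17.6, 16.3, 15.2, 14.3 and 16.2 RPKM in controls, which overlapped (-0.10 ± 0.07, adjusted p = 0.332). Kcng1, a Kv6.1 silent subunit, fell with the KO label to 7.21 to 8.39 RPKM after CSDS, against 8.46 to 10.2 RPKM in controls (-0.24 ± 0.06, adjusted p = 0.0189). In WT it had -0.18 ± 0.06 and missed the threshold (adjusted p = 0.0559). Of the 9 silent subunit genes, 1 rose and 2 fell in each genotype.

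Kv3 channels, which let fast-spiking neurons repolarise quickly, fell in part in each genotype. Kcnc1 (chr7:46396497-46438704), Kv3.1, was at 13.8, 13.5, 14.1, 14.6 and 13.9 RPKM after CSDS, against 16.5, 16.4, 17.96, 16.7 and 15.3 RPKM in WT controls, with no overlap (-0.24 ± 0.04, adjusted p = 0.0026). Kcnc4 (Kv3.4) had -0.21 ± 0.05 in WT (adjusted p = 0.0177). Kcnc2 (Kv3.2) was called with the KO label, at 14.2 to 14.8 RPKM after CSDS and 15.1 to 17.2 RPKM in controls (-0.17 ± 0.04, adjusted p = 0.0133), and had -0.09 ± 0.03 in WT (adjusted p = 0.0734). Kcnc1, Kcnc2 and Kcnc4 had negative values in both genotypes. Interneuron markers, which include cells that use Kv3 channels, counted 4 of 10 higher and none lower with the KO label, and 1 of 10 lower and none higher in WT. Their sums were 536 to 564 RPKM after CSDS and 516 to 608 RPKM in controls with the KO label, and 488 to 580 RPKM after CSDS and 512 to 579 RPKM in WT controls.

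The M-channel subunits Kcnq3 and Kcnq5 were called in neither genotype, with values between -0.07 and 0.07.

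A-type Kv4 channels and their subunits moved little. Kcnd1 (Kv4.1) rose in WT by 0.14 ± 0.04 (adjusted p = 0.0408), a call lost in 8 of 10 fits that left out 1 library, and had 0.12 ± 0.04 with the KO label (adjusted p = 0.0735). Kcnd2 (Kv4.2), the main dendritic A-type channel of pyramidal cells, and Kcnd3 were called in neither genotype, with values between -0.04 and 0.06. Of the KChIP subunits, Kcnip2 fell with the KO label, at 33.6 to 39.0 RPKM after CSDS and 39.4 to 42.9 RPKM in controls (-0.18 ± 0.04, adjusted p = 0.0204), a call lost without KO CSDS 4 (adjusted p = 0.0545). Kcnip1 rose with the KO label (0.20 ± 0.05, adjusted p = 0.0293), with overlapping groups, and lost the call in 6 of 10 fits that left out 1 library. The ether-à-go-go relatives Kcnh4 and Kcnh3 rose with the KO label. Kcnh4 (chr11:100740376-100759942) was low throughout, at 1.03, 0.977, 0.915, 1.10 and 1.13 RPKM after CSDS, against 0.670, 0.573, 0.621, 0.517 and 0.552 RPKM in controls. Every stressed library was above every control (0.49 ± 0.07, adjusted p = 0.00158). In WT it averaged 0.828 ± 0.087 RPKM after CSDS and 0.665 ± 0.082 RPKM in controls (SD, n = 5 each), which missed the threshold (0.19 ± 0.07, adjusted p = 0.0824). Kcnh3 had 0.15 ± 0.04 with the KO label (adjusted p = 0.0357) and 0.07 ± 0.05 in WT. Its call was lost in 6 of 10 fits that left out 1 library, with no filter on low values and with the 3 libraries of conflicting labels added as either CSDS or control.

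Inward rectifiers other than Kir2 held 3 calls, all in WT. Kcnj6, the GIRK2 subunit, fell to 4.94 to 5.61 RPKM after CSDS, against 5.72 to 6.85 RPKM in WT controls (-0.26 ± 0.05, adjusted p = 0.00581). This WT call was lost in the fit of all 4 groups. With the KO label Kcnj6 had -0.07 ± 0.13, and -0.20 ± 0.06 without KO control 10 (adjusted p = 0.0337). The other GIRK subunits were not called, with 0.13 ± 0.04 for Kcnj3 (GIRK1) with the KO label and 0.12 ± 0.05 in WT, and -0.01 ± 0.05 for Kcnj9 (GIRK3) with the KO label and -0.11 ± 0.04 in WT. Kcnj3 shares 31.1% of its exons with a gene model on the opposite strand. The other calls were the glial pair Kcnj10 and Kcnj16. Kcnj10 was at 33.3, 30.4, 31.0, 32.6 and 32.2 RPKM after CSDS, against 30.6, 27.6, 25.6, 28.9 and 29.5 RPKM in WT controls, which overlapped narrowly (0.16 ± 0.05, adjusted p = 0.0277). Kcnj16 (Kir5.1), which pairs with Kir4.1 in astrocytes, rose in WT by 0.18 ± 0.06 (adjusted p = 0.0497) and had -0.06 ± 0.05 with the KO label (adjusted p = 0.48). Leaving out single libraries ended the call of Kcnj16 in 8 of 10 cases and of Kcnj10 in 4 of 10. Astrocyte markers counted 1 of 10 higher and 3 lower with the KO label, and 2 of 10 higher and 1 lower in WT, with sums of 525 to 613 RPKM after CSDS and 513 to 580 RPKM in WT controls.

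Two-pore channels gave calls in both directions. Kcnk2 (chr1:189207930-189402273), the stretch- and lipid-sensitive TREK-1, was at 10.1, 9.95, 9.81, 9.90 and 10.3 RPKM after CSDS, against 8.78, 8.16, 8.18, 8.94 and 8.72 RPKM in WT controls, with no overlap (0.21 ± 0.03, adjusted p = 0.00147). Its relative Kcnk10 (TREK-2) had 1.68 to 1.91 RPKM after CSDS and 1.37 to 1.62 RPKM in WT controls (0.20 ± 0.05, adjusted p = 0.0194). Under the KO label Kcnk2 had 0.10 ± 0.05 (adjusted p = 0.19) and Kcnk10 0.15 ± 0.05 (adjusted p = 0.0525). Kcnk3, the acid-sensitive TASK-1, fell in WT (-0.23 ± 0.06, adjusted p = 0.0236), a call lost without WT CSDS 5, WT control 6 or WT control 9 (adjusted p up to 0.0573). Kcnk1, the most abundant two-pore gene, was called in neither genotype, at 0.06 ± 0.05 with the KO label and -0.01 ± 0.05 in WT.

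Of the channels opened by calcium, Kcnn2 (chr18:45268860-45686024), the SK2 channel of the afterhyperpolarisation, fell with the KO label. It was at 6.71, 7.05, 6.98, 7.10 and 7.04 RPKM after CSDS, against 7.91, 7.64, 7.93, 7.73 and 7.59 RPKM in controls, with no overlap (-0.14 ± 0.03, adjusted p = 0.00795). In WT it had -0.03 ± 0.04 (adjusted p = 0.589). Kcnn1 and Kcnn3, the other SK genes measured, were called in neither. Kcnma1 (chr14:23289431-24014491), the BK channel that opens with both calcium and voltage, was at 16.7, 16.9, 14.99, 15.7 and 17.0 RPKM after CSDS, against 18.3, 17.9, 18.3, 17.3 and 17.5 RPKM in WT controls (-0.13 ± 0.04, adjusted p = 0.0266). This call was lost without WT CSDS 4 or WT control 6, 7 or 8 (adjusted p up to 0.0588), and in the fit of all 4 groups. With the KO label it had 0.01 ± 0.09 (adjusted p = 0.957).

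KO control 10 gave the extreme value of several of these genes among the KO controls. For Kcna2 the KO controls were at 15.2, 15.1, 14.98, 15.01 and 9.56 RPKM, for Kcnma1 at 18.6, 18.9, 18.9, 18.8 and 13.4 RPKM, and for Kcnc1 at 17.4, 17.0, 17.3, 17.5 and 14.1 RPKM. In each case the last value, from control 10, was the low one. Without it 20 members were called with the KO label in place of 14, and the share of all genes called in that fit is not given here. Of the 14, 13 were kept, with Kcnk13 lost, and Kcnj3, Kcnj6, Kcnt2, Kcnc1 and Kcnip3 were among those gained. Kcnc1 then had -0.20 ± 0.02 (adjusted p = 0.00129), Kcna2 -0.06 ± 0.06 (adjusted p = 0.538) and Kcnma1 -0.08 ± 0.04 (adjusted p = 0.139). Summed choroid plexus markers were at 5159 RPKM in control 10 and 732 to 3819 RPKM in the other KO controls, interneuron markers at 608 against 516 to 564 RPKM, and pyramidal markers at 842 against 895 to 961 RPKM. Microglial markers were at 188 against 162 to 172 RPKM, and striatal markers at 37.4 against 23.6 to 34.8 RPKM. Genes induced by neuronal activity were at 143 against 107 to 127 RPKM, and neuron markers at 921 against 926.5 to 994.3 RPKM. Granule cell markers were at 89.1 against 93.4 to 99.6 RPKM, and thalamic markers at 35.0 against 29.8 to 34.0 RPKM. Markers of oligodendrocyte precursors were at 72.28 against 68.85 to 71.78 RPKM. Astrocyte, oligodendrocyte, endothelial, pericyte and fibroblast markers lay inside the range of the other KO controls. WT control 6 also lay outside the other WT controls for several lists, such as interneuron markers at 579 against 512 to 560 RPKM. Lying outside is therefore not shown to be particular to KO control 10. KO control 10 also differed from the other KO controls in Xist and Ddx3y, as given above for control 10. The parts of tissue composition and of sex in the low channel levels were not tested.

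**Figure D4:**
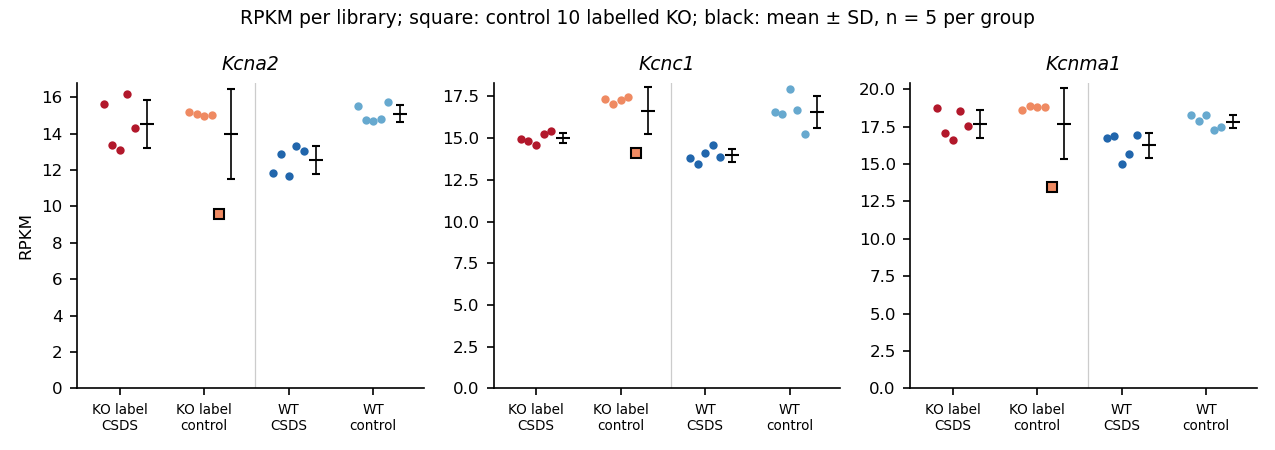
RPKM in each library for Kcna2, Kcnc1 and Kcnma1, with groups from KO-labelled CSDS to WT control, axes from 0 and the mean ± SD in black (n = 5 per group). The square is KO control 10, at 9.56, 14.1 and 13.4 RPKM, below the other 4 KO controls in all 3 panels.

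Whether the effect of CSDS differed between the KO label and WT was tested directly, with all 20 libraries. No member passed the threshold, where 0.148% of all genes did (0.0602% higher and 0.0876% lower, limma, adjusted p). By unadjusted p, 12 members were under 0.05, 9 of them with a more positive effect under the KO label, where 11.5% of all genes had such a p. Kcnf1 had the smallest p, with a difference of 0.35 ± 0.09 (adjusted p = 0.126). Kcnh4 followed at 0.30 ± 0.09 (adjusted p = 0.182), and Kcnj16 at -0.24 ± 0.08 (adjusted p = 0.235). Kcna2 had 0.33 ± 0.14 (adjusted p = 0.355), and 0.20 ± 0.07 without KO control 10 (adjusted p = 0.301). Calls made in only 1 genotype are therefore not shown to differ between genotypes.

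Compared directly between genotypes, few channel genes differed. After CSDS, 2 of 77 members differed between KO-labelled and WT libraries, where 2.24% of all genes were called, and both were higher with the KO label. In 3 members, the third being Kcnc1, the groups did not overlap, against 5.45% of all genes. Kcnf1, from the values given above, ran from 13.5 to 16.1 RPKM with the KO label and from 10.1 to 12.7 RPKM in WT, without overlap (0.34 ± 0.06, adjusted p = 0.00623). Kcna1 was at 20.9, 21.0, 20.2, 22.1 and 21.3 RPKM with the KO label, against 18.9, 19.1, 17.6, 17.9 and 19.1 RPKM in WT. Every library labelled KO was above every WT library (0.18 ± 0.05, adjusted p = 0.045), but the call was lost in 14 of 20 fits that left out 1 library, with adjusted p up to 0.115. In all, 17 members had an unadjusted p under 0.05, as did 16.0% of all genes. Without KO control 10, Kcna2 was also called (0.20 ± 0.05, adjusted p = 0.0342).

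Among controls, Kcnk9 alone of the 77 members differed, where 3.95% of all genes were called, and 14 members had an unadjusted p under 0.05, as did 18.7% of all genes. Kcnk9 (chr15:72501089-72546340) encodes the acid-sensitive two-pore channel TASK-3. It was at 10.2, 10.6, 11.0, 10.5 and 8.44 RPKM in KO controls, against 11.9, 11.7, 13.9, 11.5 and 11.9 RPKM in WT controls. It was the 1 member whose groups did not overlap, against 4.96% of all genes (-0.26 ± 0.06, adjusted p = 0.0323). KO control 10 was the lowest of these and WT control 8 the highest, and without KO control 10 the value was -0.19 ± 0.05 (adjusted p = 0.0565). The call was also lost without KO control 6, WT control 6 or WT control 8, with adjusted p up to 0.0745. Without KO control 10, Kcnc2 (0.12 ± 0.03, adjusted p = 0.0379) and Kcnt2 (0.27 ± 0.06, adjusted p = 0.0139) were called in its place. After CSDS Kcnk9 had -0.03 ± 0.06 between genotypes (adjusted p = 0.84).

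Kcne2, a small subunit of epithelial channels, and Kcnj13 (Kir7.1) belong to the choroid plexus, the epithelium that makes cerebrospinal fluid and touches the dissected hippocampus. Kcne2 was at 2.80, 2.21, 11.6, 7.94 and 13.6 RPKM after CSDS and 7.31, 3.03, 13.2, 6.16 and 16.1 RPKM in controls with the KO label. In WT it was at 8.69, 10.2, 10.0, 11.9 and 10.1 RPKM after CSDS and 0.0824, 8.32, 16.4, 6.69 and 16.8 RPKM in controls. The groups overlapped widely, with the WT control 6 library near 0. Kcnj13 was at 0.442 RPKM in that library and at 12.1 to 35.8 RPKM in the other 4 WT controls. Ttr, the defining choroid plexus transcript, was at 16.9 RPKM there and at 481 to 4740 RPKM in the other 19 libraries. The 5 libraries lowest in Ttr included all 5 lowest in Kcnj13 and 4 of the 5 lowest in Kcne2. Neither gene was called in any comparison, with log2 fold changes after CSDS of -0.34 ± 0.54 with the KO label and 0.73 ± 0.79 in WT for Kcne2. Kcnj13 shares 49.1% of its exons with Gigyf2 on the opposite strand, which was at 7.45 RPKM in WT control 6.

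**Figure D5:**
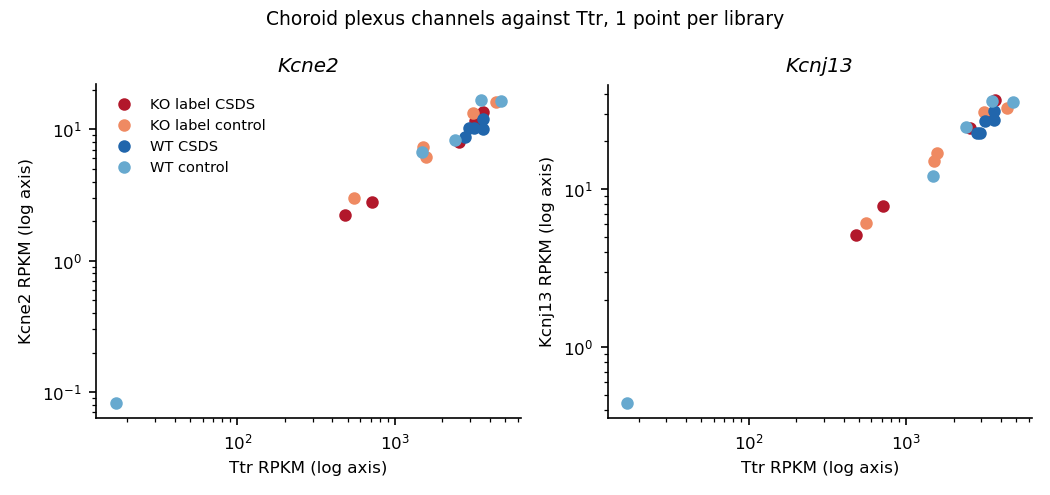
Kcne2 (left) and Kcnj13 (right) against Ttr, all in RPKM on log axes, 1 point for each of the 20 libraries and coloured by group. The libraries low in Ttr are low in both genes, and WT control 6 stands alone at 16.9 RPKM of Ttr, 0.0824 RPKM of Kcne2 and 0.442 RPKM of Kcnj13.

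Kcnj8, the KATP subunit Kir6.1 of pericytes, averaged 1.29 ± 0.15 RPKM after CSDS and 1.58 ± 0.22 RPKM in controls with the KO label, and 1.18 ± 0.11 RPKM after CSDS and 1.32 ± 0.08 RPKM in WT controls (SD, n = 5 each). It was called in neither genotype (adjusted p = 0.11 with the KO label and 0.181 in WT). Kcnj11 (Kir6.2), its neuronal relative, was higher, at 9.82 RPKM over all libraries, and was not called either. Kcnk6 was at 0.765 RPKM and was called in no comparison.

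Genes that work with these channels were counted from a list of 34 partners, of which 32 were tested. After CSDS 2 rose and 3 fell with the KO label, and 2 rose and 8 fell in WT, with a median log2 fold change of 0.02 with the KO label and -0.03 in WT. The GIRK partners held most of the lower calls, with 3 of 9 lower and none higher with the KO label, and 6 lower and 1 higher in WT. Snx27, which sorts GIRK channels in endosomes, had -0.14 with the KO label (adjusted p = 0.0136) and -0.20 in WT (adjusted p = 0.000658). Htr1a, the serotonin 1A receptor, had -0.26 with the KO label (adjusted p = 0.012) and -0.27 in WT (adjusted p = 0.0247), and Gabbr2, a GABA-B receptor subunit, had -0.16 in WT (adjusted p = 0.00181). Adora1, the adenosine A1 receptor, fell in both, at -0.13 with the KO label (adjusted p = 0.0335) and -0.17 in WT (adjusted p = 0.0068). Of 10 Kv1 partners, Lgi1, a secreted protein of Kv1 complexes, rose in both, at 0.17 with the KO label (adjusted p = 0.0122) and 0.14 in WT (adjusted p = 0.0056). Cntn2, an axonal adhesion protein that clusters Kv1 channels beside the node, had -0.35 in WT (adjusted p = 0.00125). Lrrc55, an auxiliary subunit of BK channels, rose with the KO label (0.28, adjusted p = 0.00518). Of 13 genes of potassium and chloride homeostasis, which include the sodium pump, none was called with the KO label and 1 in WT, the chloride exporter Slc12a5 (-0.19, adjusted p = 0.00292). No sodium pump gene was called in either genotype.

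Genes induced by neuronal activity were lower in the same stressed libraries, 5 of 12 tested with the KO label and 10 of 12 in WT, with none higher in either. Their summed level was 85.7 to 104 RPKM after CSDS and 107 to 143 RPKM in controls with the KO label, and 89.9 to 109 RPKM after CSDS and 118 to 153 RPKM in WT controls, without overlap in either genotype. Their part in the channel changes was not tested.

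Of the 77 members, 32 were called in at least 1 of the 5 comparisons, a count for which no share of all genes is given here. The antisense transcripts Kcnmb4os1 and Kcnmb4os2 were called in none, and share 43.1% and 34.2% of their exons with Kcnmb4, so that their reads cannot be told apart from it. Some members lie beside each other on a chromosome. Kcnj16 and Kcnj2 are 38.2 kb apart on chromosome 11, and both had positive values in WT, while with the KO label Kcnj2 rose and Kcnj16 had -0.06. Kcna3 and Kcna2 are 63.1 kb apart on chromosome 3 and both fell in WT. Kcna1 and Kcna6 are 61.9 kb apart on chromosome 6, and Kcna6 fell in WT while Kcna1 had -0.09. Kcnj9 and Kcnj10 are 11.9 kb apart on chromosome 1, with -0.11 for Kcnj9 and a rise of 0.16 for Kcnj10 in WT. The length of a gene from start to end bore no clear relation to its change (Spearman's rho 0.07 with the KO label and 0.05 in WT across 77 genes, which are not independent and share the libraries).

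The authors' deposited table for each genotype gives a false discovery rate for 76 of the members. For the KO label, 17 members were below 0.05 in the authors' deposited table, 9 higher and 8 lower after CSDS, and 13 of them were among the 14 calls given here. In WT the authors' deposited table had 21 below 0.05, 9 higher and 12 lower, of which 19 were among the 23. The control means in the authors' deposited tables include the 3 libraries with conflicting labels as controls.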

How the data were processed

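The authors deposited 1 table of RPKM values per genotype, with log2 fold changes, a likelihood ratio score, a p-value and a false discovery rate from edgeR, per the file headers. Reads were aligned with STAR to mm10, per the submitters' processing notes. How genes were counted, and with which annotation, is not given in the sources used here. Per the labels' protocols, poly(A) RNA was read as 75 bp single ends from TruSeq V2 libraries, a kit that keeps no strand. Values were tested as log2(RPKM + 0.5) with limma-trend (limma 3.58.1, R 4.3.3), two-sided, for 18263 genes with a mean of at least 0.5 RPKM over the 20 libraries, with Benjamini-Hochberg adjustment over all of them at 0.05. Fold changes of low genes are understated by the added 0.5. Stress was tested within each genotype, and the other comparisons in 1 fit of all 20 libraries. The script was tested on simulated data. Depth was estimated from RPKM steps of 11945 single-exon genes, where 92.8 to 94.0% of values fell within 0.05 of a whole read. Of the gene identifiers, 37570 had the same coordinates in GENCODE vM21. In the authors' deposited log2 fold changes a positive sign means higher in controls. Alternatives were pseudocounts of 0.1 and 1, other filters, rescaled libraries, both readings of the conflicting labels, leaving out libraries and a replicate block. Members, lists and the rule for named genes (the called members, the top member of each subfamily and set lists of neuronal and glial channels) were chosen with earlier results of these data known. Kcnt2 and Kcnj11 are outside that rule and were named after their values were seen. Some members stay in the fits and in the counts but are not reported singly here or plotted.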

Additional observations from a re-analysis of the deposited data

Results flagged for a closer look

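Dixon's test at the 95% level was applied to each group of 5 libraries for 32 members, which gave 128 groups. Chance flags about 1 group in 20, and the number flagged, 5 values, was not above that rate. Of these, 3 came from the same library, KO control 10, and all were low. Kcnma1 was at 13.44 RPKM there, against 18.59 to 18.86 RPKM in the other 4 KO controls. Kcna2 was at 9.558 RPKM, against 14.98 to 15.19 RPKM, and Kcnc1 at 14.12 RPKM, against 17.02 to 17.46 RPKM. The other 2 values stood apart upwards. Kcnk9 was at 13.88 RPKM in WT control 8, with 11.47 to 11.95 RPKM in the other WT controls, and Kcns2 was at 5.746 RPKM in WT CSDS 5, with 5.373 to 5.468 RPKM in the other stressed WT libraries.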

How the results depend on the processing

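The counts of called members stayed within 1.5 times under pseudocounts of 0.1 and 1, the filter over fitted libraries and rescaled libraries in both stress comparisons and the difference of effects, and no called value changed sign. The reading of the 3 conflicting labels mattered most. With these libraries as CSDS, 3 members were called with the KO label (Kcnh4, Kcnj2 and Kcnj4) in place of 14, and 6 in WT (among them Kcnk2, Kcnj2, Kcna4, Kcnf1 and Kcnc1) in place of 23, while with them as controls 17 and 25 were called. The cause was not tested. For all alternatives here, the share of all genes called is not given beside the count of members. A gain or loss of calls is therefore not shown to be particular to channel genes. Leaving out single libraries gave 8 to 20 calls with the KO label, with 8 without KO CSDS 4, 9 without KO control 6 and 20 without KO control 10, and 18 to 22 in WT. A shared fit of all 4 groups gave 20 calls in each genotype. With the KO label it kept all 14 calls and gained 6. In WT it kept 18 of the 23 calls, lost 5 (Kcna2, Kcna3, Kcnj6, Kcnma1 and Kcnt1) and gained 2. The difference of effects gave 0 members under every alternative run. Between genotypes after CSDS, the 2 calls became 1 with no filter on low values, with rescaled libraries, with either reading of the conflicting labels and with the replicate block, 4 without control 10 of both genotypes, and 1 to 3 without single libraries. Among controls, the 1 call became 0 with no filter, 5 with the conflicting libraries as controls, 2 without control 10 of both genotypes, 2 with the replicate block, and 0 to 2 without single libraries (0 without WT control 6, WT control 8 or KO control 6). The library numbers were not shown to pair the samples. Correlations of libraries with the same number ran from -0.11 to 0.37, and only some correlated best with their own number. This check cannot exclude a pairing. With the number as a replicate block, Kcna1 lost its call after CSDS and Kcnab3, named after its value was seen, gained 1 among controls. The RPKM tables give no counting error, so the precision of the 15 members under 2 RPKM is known only from the spread of libraries.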

Other observations

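The 3 libraries with conflicting labels can be set beside the groups for the members described. Kcnf1 was at 16.4 RPKM in KO 10B, 15.9 RPKM in KO 11 and 15.3 RPKM in WT 9B, where WT ran from 10.1 to 12.7 RPKM after CSDS and from 14.8 to 17.0 RPKM in controls. Kcna4 was at 4.34, 4.53 and 4.54 RPKM in the same libraries, below all 10 stressed libraries (5.07 RPKM and above). Kcns2 was at 7.79, 7.78 and 6.73 RPKM, above all stressed libraries (6.29 RPKM and below). Kcnj2 was at 2.30 and 2.34 RPKM in KO 10B and 11, between the stressed libraries labelled KO (2.70 to 3.52 RPKM) and their controls (1.74 to 2.02 RPKM). Kcnh4 was at 0.852 and 0.836 RPKM in these libraries, likewise between the stressed (0.915 to 1.13 RPKM) and control (0.517 to 0.670 RPKM) ranges of the KO label. WT 9B had 2.155 RPKM of Kcnj2, inside the WT control range of 1.78 to 2.24 RPKM. It had 0.5605 RPKM of Kcnh4, just under the WT control range of 0.5626 to 0.7502 RPKM.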
